A study of Arabidopsis thaliana with 3 samples.

Results

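The loci described here are those of the 2 organelle genomes of Arabidopsis thaliana, chosen as every locus in the deposited count tables whose identifier begins with ATCG (chloroplast) or ATMG (mitochondrion). There are 133 chloroplast and 146 mitochondrial loci, 279 of 32678 loci in all. They were counted by RNA sequencing in 3 libraries of dissected, untreated inflorescence meristems of the wild-type accession Col-0, the stem cell region that tips a shoot in bloom and sets out its flowers. Plants were kept 4 weeks under 8 h of light and then 2 weeks under 16 h of light, each library pooled 10 inflorescences without the buds older than stage P5, and tissue was frozen within 3 min. The libraries form 1 group and no other condition was sequenced, so the comparisons are between loci, between genomes and between libraries. Separate growth or dissection of the pools is not recorded, so any p-value given here speaks of the spread among 3 pools, part of which may be technical.

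The chloroplast genome encodes subunits of both photosystems, of the cytochrome b6f complex, the ATP synthase and an NADH dehydrogenase-like complex, the large subunit of Rubisco, and parts of the chloroplast's own RNA polymerase and ribosome. The mitochondrial genome encodes subunits of the respiratory complexes and of the ATP synthase, factors of cytochrome c maturation, and ribosomal proteins. In the shoot apex, plastids are small proplastids, and most proteins of both organelles are encoded in the nucleus, including the phage-type RNA polymerases and the sigma factors that help read organelle genes. Most organelle transcripts carry no stable poly(A) tail. Whether RNA with poly(A) tails was selected or ribosomal RNA was removed is not given in the sources used here, and the part of either step in the levels below was not tested.

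The tables hold identifiers alone, and the reference annotation (TAIR10.1, from RefSeq) lists organelle genes under other tags. A name could be given only where the description of a nuclear gene cites an organelle identifier as its best protein match or as the source of a pseudogene. Such notes exist for 60 loci (7 chloroplast and 53 mitochondrial), and for 30 of these (6 and 24) the note carries a name. All other loci are given by identifier with no role, and their counts are not divided by length, so the order of their counts is not an order of levels.

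What the reference sequence holds bears on every count below, because a read of 100 bp that fits several places cannot be placed by its own sequence alone. Reads came in pairs, so a mate outside the repeat may place such a read. The windows of 100 bases used below take no account of mates. The chloroplast reference of 154478 bases carries its ribosomal RNA genes and several protein genes in an inverted repeat of 26264 bases, whose copies, at Pltd:84171-110434 and Pltd:128215-154478, are 100% identical. Of all windows of 100 bases in the chloroplast reference, 33.9% occur again in the same genome. The gene rpl2, for ribosomal protein L2, lies in both copies with 0 mismatches over 1507 bases, and its first 60 bases are shown from each copy (TAIR10.1, minus strand for copy A and plus strand for copy B) because no read inside them can tell the copies apart.
rpl2 copy A, Pltd:85784-85843: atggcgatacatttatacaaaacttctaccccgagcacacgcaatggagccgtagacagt
rpl2 copy B, Pltd:152806-152865: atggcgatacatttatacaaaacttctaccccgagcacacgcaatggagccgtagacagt

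The mitochondrial reference of 367808 bases is repeated mainly outside itself. Of its windows of 100 bases, 67.6% occur in the nuclear chromosomes and 7.51% a second time in the mitochondrial genome. The nuclear matches lie chiefly in a block of chromosome 2, chr2:3239038-3509765, where 17 alignments of at least 2000 bases cover 72.2% of the mitochondrial reference. Over 288136 aligned bases these carry 205 mismatches, a match of 99.9% in which gaps are not counted as mismatches. A stretch of 100 bases of cob, for apocytochrome b of respiratory complex III, is identical in both places (minus strand of the mitochondrial reference, plus strand of chromosome 2), as is the whole gene of 1182 bases. A stretch of mitochondrial rpl2, for a ribosomal protein, holds neighbouring bases that differ between the places, printed in capitals, out of 4 mismatches over 2701 bases.
cob, MT:182759-182858: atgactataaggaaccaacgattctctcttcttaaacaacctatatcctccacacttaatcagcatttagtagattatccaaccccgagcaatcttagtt
cob, chr2:3450863-3450962: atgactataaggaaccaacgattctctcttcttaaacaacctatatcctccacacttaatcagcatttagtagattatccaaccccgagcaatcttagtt
rpl2, MT:222042-222141: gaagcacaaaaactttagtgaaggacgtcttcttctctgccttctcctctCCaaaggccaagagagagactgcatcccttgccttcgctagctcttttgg
rpl2, chr2:3411649-3411748: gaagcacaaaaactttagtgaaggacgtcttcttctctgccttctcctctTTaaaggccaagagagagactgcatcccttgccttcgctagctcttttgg
The submitters' processing notes name the build TAIR10. The mitochondrial sequence of TAIR10.1 may differ from the one the reads were aligned to, so these matches describe the reference used here and not the alignment behind the counts.

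The genes touched by these repeats differ between the genomes. The chloroplast reference lists 85 protein genes, among them rps12 under separate tags that share a first exon. Of these, 65 held no window of 100 bases that occurs elsewhere, 10 held some and 10 were repeated in full. Those repeated in full are both copies of rpl2, rpl23 and rps7 (ribosomal proteins), ndhB (a subunit of the NADH dehydrogenase-like complex) and ycf2. All 7 annotated ribosomal RNA genes of the chloroplast were repeated in full. Of 33 mitochondrial protein genes, 14 were repeated in full, 14 in part and 5 not at all. Those with no repeated window were nad9 and nad4L (complex I), cox1 (complex IV), atp4 (ATP synthase) and ccmB (cytochrome c maturation). Those repeated in full include cob, cox3, atp1, atp8, atp9 and nad3, each identical to its copy on chromosome 2 over the whole annotated gene. The mitochondrial ribosomal RNA genes rrn5, rrn18 and rrn26 held no repeated window.

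**Figure D1:**
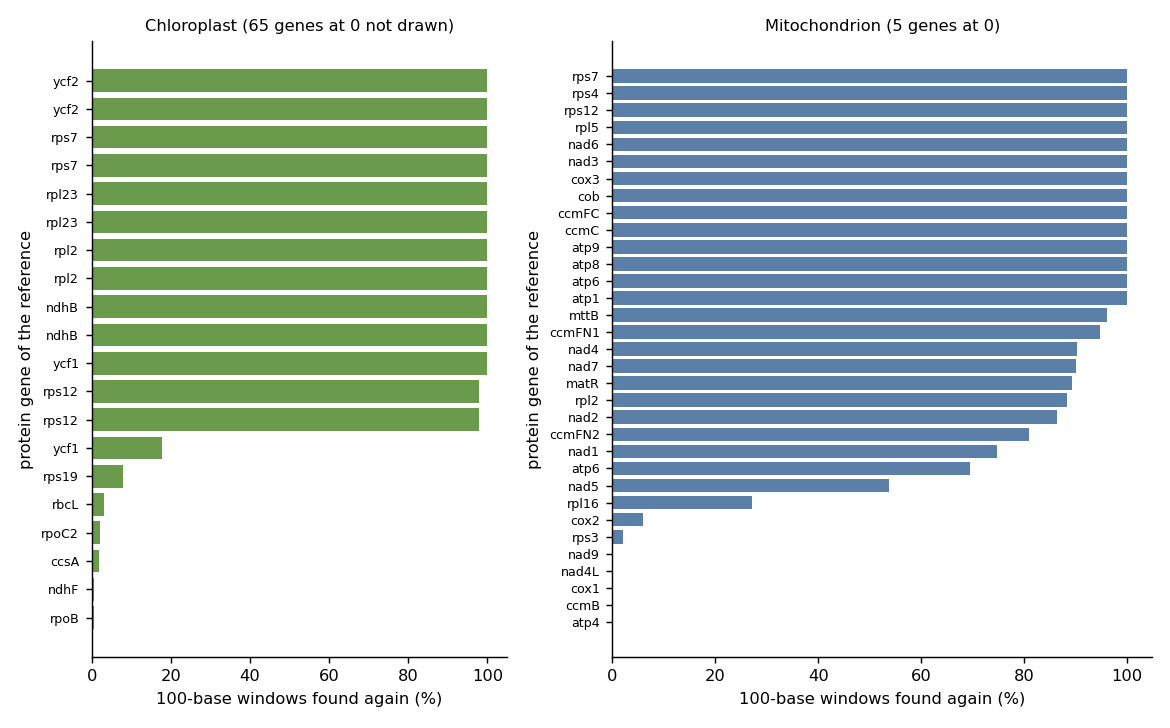
Share of the 100-base windows of each protein gene of the organelle references that occur again anywhere in the reference (x axis, percent), 1 bar per annotated gene, with trans-spliced genes searched over all their annotated parts. The chloroplast panel leaves out 65 genes at 0, whereas 14 of 33 mitochondrial genes stand at 100%.

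Organelle loci took a very small part of the counts. The chloroplast loci held 13654 of 29094404 counts in replicate 1, 12840 of 28948463 in replicate 2 and 14422 of 27254114 in replicate 3. Their share was 0.0469%, 0.0444% and 0.0529%, with exact (Clopper-Pearson) 95% intervals of 0.0461 to 0.0477%, 0.0436 to 0.0451% and 0.0521 to 0.0538%. The mean was 0.0481% ± 0.0044 (SD, n = 3), and the 3 intervals did not overlap. The intervals cover counting error only, since reads that carry no molecular identifiers may be copies of 1 molecule. In pooled tissue, the number of cells rich in organelle RNA and the organelle RNA per cell cannot be told apart. The part in these shares of poly(A) selection, of removal of ribosomal RNA or of reads that fit several places was not tested.

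The mitochondrial loci held 2643, 2581 and 3133 counts in replicates 1, 2 and 3. Their share was 0.00908%, 0.00892% and 0.0115%, a mean of 0.00983% ± 0.0014 (SD, n = 3). The intervals of replicates 1 (0.00874 to 0.00944%) and 2 (0.00858 to 0.00927%) overlapped, and that of replicate 3 (0.0111 to 0.0119%) lay above both. Replicate 3, the library with the fewest counts in all, had the highest share of both genomes. Chloroplast loci together had 5.17, 4.97 and 4.60 times the counts of mitochondrial loci in replicates 1, 2 and 3, a log2 ratio of 2.30 ± 0.08 (SD, n = 3).

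Regulators of meristem and flower were counted in these libraries at unlike levels. STM, which keeps the shoot meristem undifferentiated, stood at 113 CPM (counts scaled to the sum of all gene counts of the library) ± 14.0 (SD, n = 3), LFY, which directs flower identity, at 88.7 ± 15.7 CPM and AP1, a flower identity factor of young primordia, at 263 ± 17.1 CPM. WUS, the stem cell organiser, stood at 3.94 ± 0.72 CPM and CLV3, the stem cell signal, at 0.895 ± 0.21 CPM. Of these 5 listed regulators, 4 reached 1 CPM in each library and CLV3 did not. Depth bounds what a 0 means only for counting error. The limit that a count of 0 allows, 3 counts, equals 0.103, 0.104 and 0.110 CPM in replicates 1, 2 and 3. Reads that fit several places, whose treatment is not known, are outside this limit.

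Of the 133 chloroplast loci, 70 (52.6%) had at least 10 counts in each library, 20 had some counts below that, and 43 were listed at 0 in all 3 libraries. Over all loci of the tables, 56.5% had at least 10 counts in each library, so the chloroplast share lay near that of loci at large. The 70 loci held 99.4% ± 0.09 (SD, n = 3) of the chloroplast counts. Among them, 42 had at least 50 counts in each library, 21 at least 100 and 2 at least 1000. Of the 146 mitochondrial loci, 26 (17.8%) had at least 10 counts in each library, 50 had some, and 70 were listed at 0 throughout. This is below the 56.5% over all loci. The 26 loci held 95.2% ± 0.79 (SD, n = 3) of the mitochondrial counts. Among them, 14 had at least 50 counts in each library and 9 at least 100. At 1 CPM in each library, 52 chloroplast and 17 mitochondrial loci passed, 39.1% and 11.6%, beside 53.2% of nuclear loci.

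Many of the loci listed at 0 had neighbouring identifiers. Of the 43 chloroplast loci at 0, 32 lay in 2 long stretches with at most 3 counts in any library and 11 lay elsewhere. The stretches were 19 consecutive identifiers from ATCG00830 to ATCG01000 and 18 from ATCG01140 to ATCG01310. Within the first, 17 consecutive loci from ATCG00840 to ATCG00990 were listed at 0 in all libraries. In the second, ATCG01310, which a note names ribosomal protein L2, had 2, 0 and 3 counts. It is the only named chloroplast locus of a gene that the reference holds in the inverted repeat, and it had fewer counts than each of the 6 other noted chloroplast loci. Which other loci of these stretches lie in the repeat could not be read from the sources used here, and the part of repeated sequence in their low counts was not tested. Of the 70 mitochondrial loci at 0, 41 lay in 3 such stretches, of 10, 19 and 24 identifiers, and 29 lay elsewhere.

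**Figure D2:**
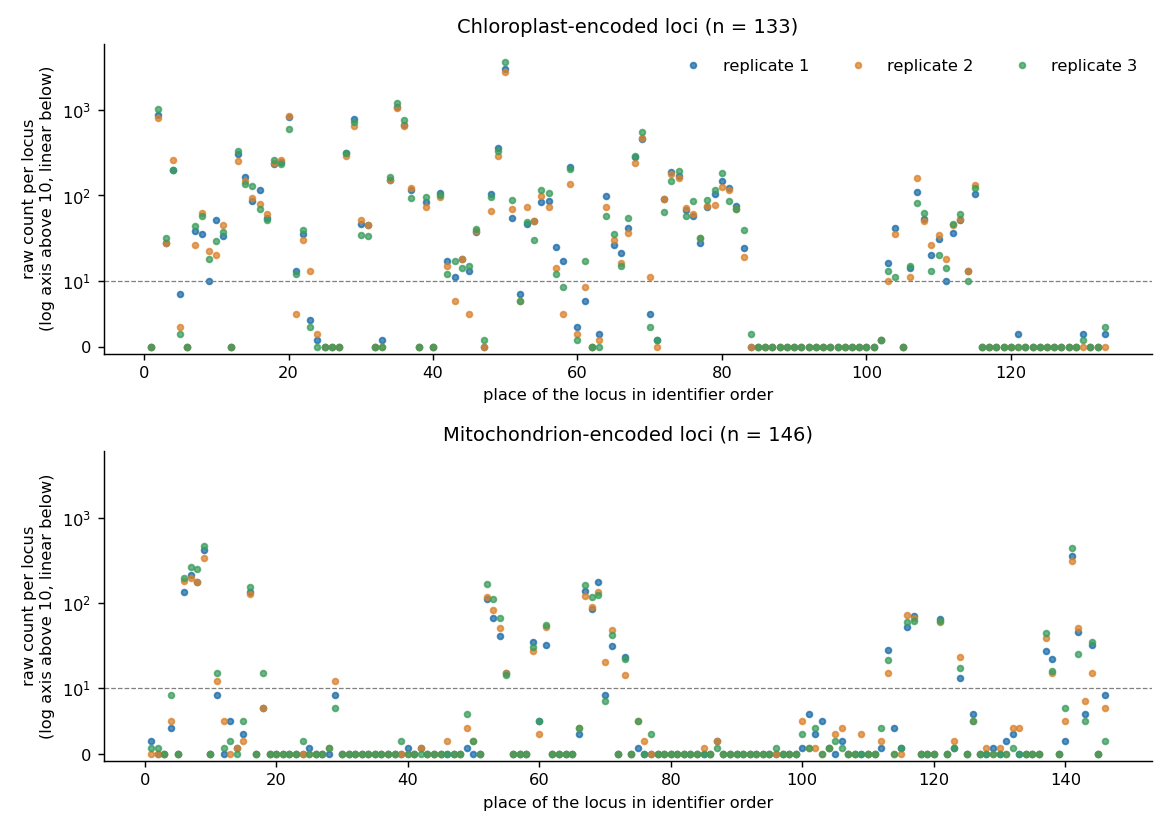
Raw count of every chloroplast (upper panel) and mitochondrial (lower panel) locus in each library, against the place of its identifier in sorted order. The y axis is linear below 10 counts (dashed line) and logarithmic above, and the chloroplast panel shows the stretches of 19 and 18 loci with at most 3 counts.

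Chloroplast counts were concentrated in few loci. ATCG00490 had 3072, 2777 and 3733 counts in replicates 1, 2 and 3, which was 23.3% ± 2.25 (SD, n = 3) of all chloroplast counts. ATCG00340 followed with 1104, 1063 and 1207 counts, and ATCG00020 with 892, 822 and 1035. These loci were highest in replicate 3 and lowest in replicate 2, as was the sum of all chloroplast loci. ATCG00190 had 842, 856 and 608 counts and ran the other way, with its lowest count in replicate 3. ATCG00280 had 799, 657 and 730 counts, and with it the 5 highest loci held 49.3% ± 1.32 of the chloroplast counts. ATCG00350 had 680, 656 and 766 counts. The rest of the 10 highest were ATCG00680, ATCG00480, ATCG00270 and ATCG00120, with mean counts of 492, 327, 306 and 297. The 10 loci together held 64.9% ± 1.64 and the first 20 held 79.4% ± 1.21. At the other end, all chloroplast loci short of 10 counts in some library had 89 ± 15.9 counts between them.

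Named chloroplast loci could be set on a scale per length through the reference gene of the same product, for those that occur in 1 copy with no repeated window. ATCG00670, the plastid-encoded proteolytic subunit of the Clp protease (clpP, Pltd:69910-71882), which degrades proteins in the stroma, had 281, 241 and 291 counts, 459 ± 44.8 counts per kb of coding length (SD, n = 3). ATCG00660, ribosomal protein L20 of the large subunit (rpl20, Pltd:68512-68865), had 41, 36 and 55 counts, 124 ± 27.8 per kb. ATCG00530, matched to an envelope membrane protein (cemA, Pltd:60741-61430), had 50, 50 and 30 counts, 62.8 ± 16.7 per kb. On this scale the level per kb of clpP lay above that of rpl20 and cemA in every library. The order rests on coding length, 591 of the 1973 bases that clpP spans, whereas rpl20 and cemA are coding throughout. The annotation behind the counts is not known. Over its whole span, clpP would lie below rpl20 in replicate 3, so the order in every library holds for coding length only. ATCG00430, for which the note gives photosystem II reaction center protein G, had 18, 18 and 14 counts and was not set on that scale. That name is doubtful, since the chloroplast reference lists no gene of this product. The nuclear gene that carries the note, AT5G11770, is described as an NADH-ubiquinone oxidoreductase subunit. The nuclear genes whose notes cite these loci share no window of 100 bases with the chloroplast reference. One of them, AT1G12410, for the nuclear Clp proteolytic subunit 2, had 2675, 2490 and 2514 counts.

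The first mitochondrial locus held a smaller share of its genome's counts than the first chloroplast locus did. ATMG00090 had 410, 336 and 459 counts in replicates 1, 2 and 3, which was 14.4% ± 1.27 (SD, n = 3) of mitochondrial counts. ATMG01360 had 352, 311 and 435 counts and ATMG00070 had 214, 195 and 261. Each was highest in replicate 3 and lowest in replicate 2. ATMG00080 had 175, 176 and 251 counts and ATMG00060 had 135, 182 and 194. ATMG00660 had 176, 133 and 123 counts, and was the only one of the 10 highest whose CPM was not highest in replicate 3. ATMG00640, ATMG00160, ATMG00510 and ATMG00650 had means of 140, 138, 131 and 97 counts. The 10 loci held 72.1% ± 2.48 of the mitochondrial counts and the first 20 held 90.9% ± 0.71. None of these 10 is cited in a note on a nuclear gene. Below them, ATMG01130 with 69, 66 and 61 counts and ATMG01170 with 65, 60 and 61 were nearly level across the libraries, whereas ATMG01390 with 32, 15 and 35 was lowest in replicate 2.

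The 53 mitochondrial loci cited in such notes are set beside the other 93 as a description, with no test. Of the 53, 4 had at least 10 counts in each library, 22 had some counts and 27 were listed at 0. Of the 93, 22 had at least 10 counts in each library, 28 had some and 43 were listed at 0. The highest mean count was 36.7 among the 53 and 402 among the 93. The 53 held 154, 142 and 159 of the mitochondrial counts in replicates 1, 2 and 3, a share of 5.47% ± 0.38 (SD, n = 3). For 52 of the 53, a cited nuclear locus lies in the chromosome 2 block described above. Of 54 cited loci long enough to be searched, 50 had at least 80% of their windows in the mitochondrial reference, and 26 had all of them. A count at such a locus or at its mitochondrial partner is uncertain, since the rule for reads that fit both is not given in the sources used here, and its part in the low counts was not tested.

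The tables list both loci for 46 cited pairs, of which 21 had the higher mean count at the nuclear locus, 13 at the mitochondrial locus, 1 had equal counts and 11 were at 0 on both sides. For some respiratory genes the counts stood at the nuclear member of the pair. ATMG00220, apocytochrome b, had 0 counts in each library, while AT2G07727, which spans the copy of cob on chromosome 2, had 20, 35 and 37. ATMG01190, subunit 1 of the mitochondrial ATP synthase, had 1, 2 and 1 counts, while AT2G07698, which spans the copy of atp1, had 87, 89 and 90. ATMG00730, subunit 3 of cytochrome c oxidase, had 0, 0 and 3 counts, while AT2G07687, which spans the copy of cox3, had 20 or 21 in each library. In these pairs the counts of the libraries did not overlap between the nuclear and the mitochondrial locus. The pairs are grouped here by their higher nuclear counts, so this adds nothing further, and it was not counted over all 46 pairs. Counts are not divided by length here, and AT2G07727 (chr2:3449534-3452776) is longer than the copy of cob within it.

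Other pairs, among the 13, ran the other way. ATMG01320, named NADH dehydrogenase 2B after a subunit of complex I, had 27, 39 and 44 counts, while its partner AT2G07689, all of whose windows occur in the mitochondrial reference, had 1, 0 and 0. ATMG01090, named ATP synthase 9, had 28, 15 and 21 counts, and its partner AT2G07777, with 85.4% of its windows there, had 0 in each library. The chromosome 2 copy of the reference gene atp9 lies in another locus, AT2G07671, which had 4, 4 and 5 counts. Its partner ATMG01080, named subunit 9 of the mitochondrial F0-ATPase, had 1, 2 and 4, so that pair did not run this way. ATMG00560, described as a nucleic acid-binding protein of the OB-fold type, is not among the 13 but had counts on both sides. These were 35, 27 and 30 at the mitochondrial locus and 93, 101 and 80 at AT2G07715. AT2G07715 overlaps the copy of mitochondrial rpl2 that carries the differing bases shown above. ATMG00180, named as a cytochrome C biogenesis protein, had 7, 7 and 15 counts. ATMG01330, cited as the source of a pseudogene for which no count is listed, had 22, 15 and 16.

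**Figure D3:**
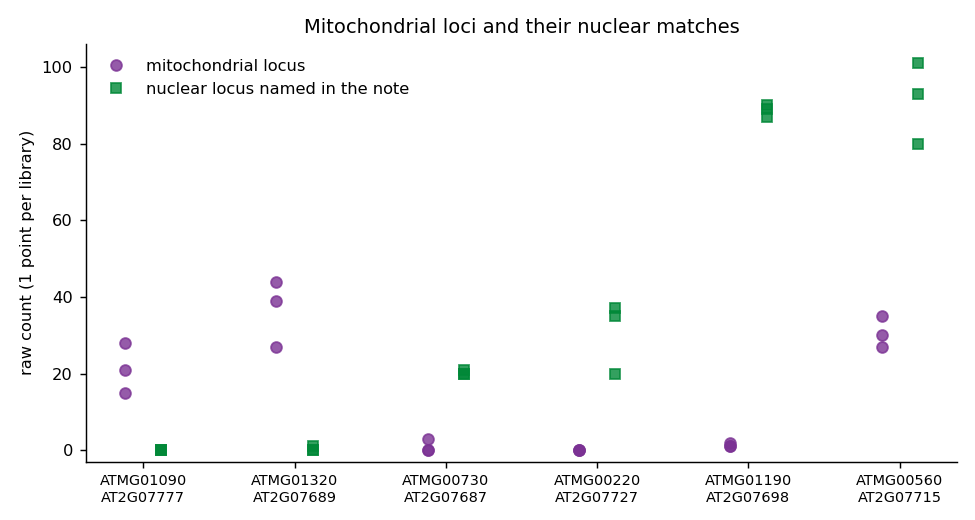
Raw counts in the 3 libraries at mitochondrial loci (circles) and at the nuclear loci whose notes cite them (squares), for the pairs in which either locus had a mean of at least 10 counts. Counts stood on the nuclear side for ATMG00730, ATMG00220 and ATMG01190, on the mitochondrial side for ATMG01090 and ATMG01320, and on both for ATMG00560.

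Several cited mitochondrial loci had almost no counts on either side. ATMG00210 (ribosomal protein L5) and ATMG00290 (ribosomal protein S4 of the mitochondrion) were listed at 0, with 2, 3 and 6 counts at AT2G07725 and 3, 6 and 5 at AT2G07734. ATMG00900 (a cytochrome C biogenesis protein) was listed at 0, with at most 3 counts at its nuclear matches. ATMG00480, for subunit 8 of the mitochondrial ATPase, had 1, 4 and 6 counts and 0 at its partner AT2G07707. Another 18 cited loci had at least 1 count and at most 6 in any library, ATMG00280, ATMG00410, ATMG00450, ATMG00920, ATMG00960, ATMG00970, ATMG00980, ATMG00990, ATMG01010, ATMG01050, ATMG01080, ATMG01100, ATMG01110, ATMG01220, ATMG01260, ATMG01270, ATMG01275 and ATMG01280. The tables list 102 loci inside the chromosome 2 block. Of these, 55 were at 0 in all libraries and 5 had at least 10 counts in each, and together they had 337, 349 and 347 counts, 12.4% ± 1.25 (SD, n = 3) of the number at all mitochondrial loci.

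The spread of each locus between the libraries was tested with edgeR's goodness-of-fit statistic against the trend of dispersion over all loci, adjusted by Benjamini-Hochberg over the 18407 loci tested. Of all loci tested, 2.5% were called at an adjusted p of 0.05. Among organelle loci, 67 chloroplast and 26 mitochondrial loci passed the filter on low counts, and 0 of either genome were called by this edgeR test. At an unadjusted p under 0.05 the count was also 0 for both genomes, beside 1108 of the 18407 loci tested (6.02%), and DESeq2's size factors gave 0 as well. The difference from these backgrounds was not tested, and nothing particular to the organelle genomes is read from it. Poisson variation alone asks only whether libraries differ beyond counting. Against it, 27 of 67 chloroplast loci (40.3%) and 13 of 26 mitochondrial loci (50%) were called, beside 60.9% of all loci tested. These shares are not at like counts, on which such calls depend. At least 1000 counts in each library were held by 20.9% of all nuclear, 1.5% of chloroplast and 0% of mitochondrial loci.

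The organelle locus with the lowest p was ATCG01020, with 41, 35 and 11 counts in replicates 1, 2 and 3 (edgeR goodness of fit, adjusted p = 0.903). Its count in replicate 3 lay below the others. Among loci with a mean of at least 50 counts, ATCG01050 differed most in the chloroplast, with a highest CPM 1.85 times its lowest and 109, 161 and 82 counts. ATCG00070 had 35, 63 and 57 counts, ATCG00500 had 54, 70 and 89, and ATCG00520 had 46, 74 and 49. These loci were lowest or highest in different libraries. In the mitochondrion ATMG00513 differed most, by 1.75 times, with 67, 83 and 110 counts, followed by ATMG00516 with 41, 51 and 66 and ATMG00510 with 110, 118 and 165. All 3 had their highest count in replicate 3. For loci with a mean of 50 to 200 counts, the median ratio of highest to lowest CPM was 1.37 over 30 chloroplast loci, 1.42 over 11 mitochondrial loci and 1.42 over 2501 nuclear loci.

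Many organelle loci had their highest level in the same library. Of chloroplast loci with a mean of 50 to 1000 counts, 22 of 42 had their highest CPM in replicate 3. Of mitochondrial loci in the same range, 12 of 15 did. Among 9606 nuclear loci in that range, 18.0% were highest in replicate 3. When each count was divided by the sum of its own genome in place of the library total, 16 of 42 chloroplast and 7 of 15 mitochondrial loci were highest in replicate 3. Loci of a genome share their libraries and are not independent replicates, so these counts describe the 3 libraries.

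**Figure D4:**
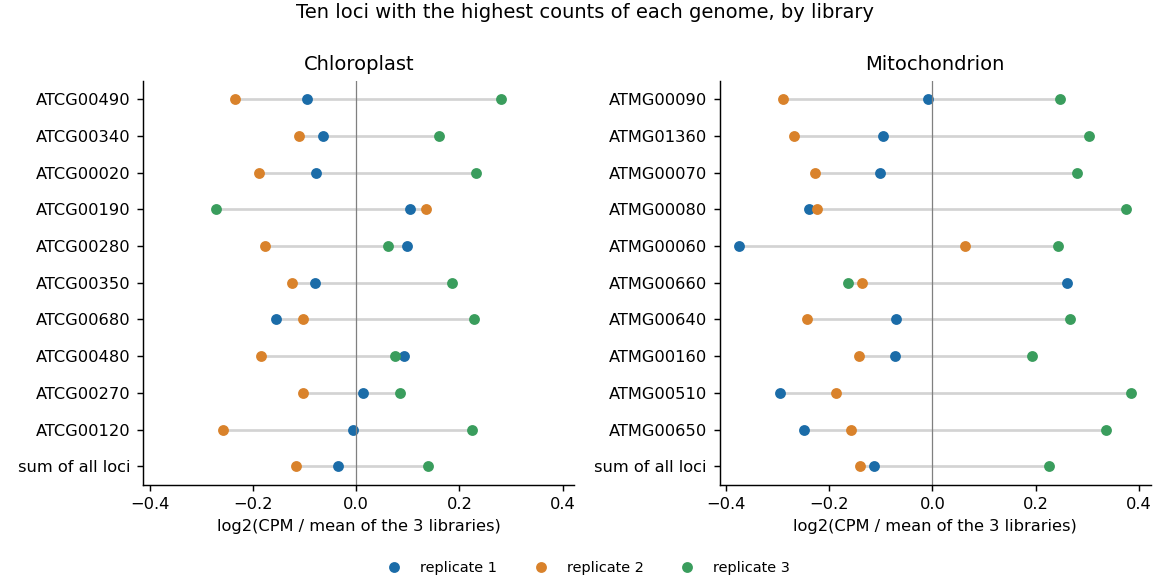
Deviation of each library from the mean of the 3 libraries, as log2(CPM / mean) on the x axis, for the 10 loci with the highest mean count of each genome and for the sum of all its loci. Replicate 3 is highest for 7 of the 10 chloroplast and 9 of the 10 mitochondrial loci, and lowest for ATCG00190 and ATMG00660.

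Nuclear genes that serve organelle gene expression, and the nuclear genes of the Rubisco small subunit, were present in the same libraries. Of 27 listed nuclear genes (2 phage-type RNA polymerases, 6 sigma factors, 12 proteins associated with the plastid-encoded polymerase, 3 organelle ribonucleases and 4 Rubisco small subunits), 27 reached 1 CPM in each library, beside 53.2% of all nuclear loci. Per kb of exon, the highest were RBCS1A and RBCS3B, for small subunits of Rubisco, at 2401 ± 248 and 167 ± 18.9 CPM per kb (SD, n = 3). PTAC7, a protein associated with the plastid-encoded polymerase, followed at 52.5 ± 4.38 CPM per kb and SIGF, the sigma factor SIG6, at 45.3 ± 2.11. The lowest were SIGE, the sigma factor SIG5 known for its response to light, at 3.50 ± 0.81 CPM per kb and RBCS1B at 5.68 ± 1.60. RBCS1B, RBCS2B and RBCS3B are neighbours of near-identical sequence on chromosome 5, and how reads were divided among them is uncertain.

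By group, the median level was 31.6 CPM per kb for the polymerase-associated proteins and 20.5 for the sigma factors. It was 14.8 for the 2 listed phage-type polymerases, a list that may not be complete, and 8.86 for the ribonucleases. The single nuclear gene RBCS1A had 92334, 77749 and 89224 counts in replicates 1, 2 and 3, each above the 13654, 12840 and 14422 counts of all chloroplast loci together. Its CPM was highest in replicate 3 and lowest in replicate 2, as was the chloroplast sum. SCA3, a phage-type RNA polymerase of the plastid, had 1907, 2062 and 1592 counts and MGP3, a mitochondrial relative, had 1314, 1420 and 1134. Both were lowest per library total in replicate 3, as were 16 of the 27 listed genes, while 10 were lowest in replicate 2 and 1 in replicate 1. The share of all nuclear loci that were lowest in replicate 3 was not computed, so nothing particular to the listed genes is read from this. The difference between libraries was not tested for the sums of a genome, since the libraries form 1 group.

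**Figure D5:**
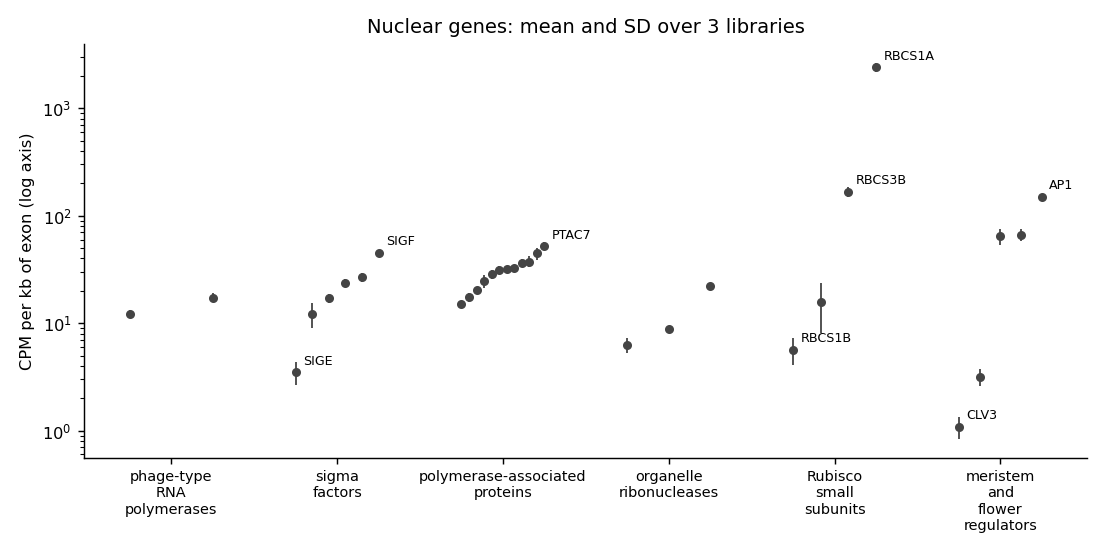
Level of nuclear genes for organelle gene expression, of the Rubisco small subunits and of meristem and flower regulators, in CPM per kb of exon on a log axis, as mean (point) and SD (bar) over the 3 libraries. RBCS1A, at 2401 CPM per kb, stands above all other genes drawn, and CLV3, at 1.09, below them.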

How the data were processed

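The values are raw counts per locus, 1 whole number for each locus and library, as deposited by the authors without normalisation. The submitters' processing notes list HTSeq 0.6.1, TopHat2 2.1.0, Bowtie2 2.2.5, FastQC and the build TAIR10. The strand setting, the annotation release and how reads that fit several places were treated are likewise not given in the sources used here. Per the labels' protocols, RNA was extracted with the PicoPure kit and strand-specific TruSeq libraries were read as pairs of 100 bp on a HiSeq2000. Totals were 29094404, 28948463 and 27254114 counts, and no row lacked a locus name.

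Shares, exact intervals and CPM were computed with Python 3.11.15 and scipy 1.17.1. Spread was tested with edgeR 4.0.16 over all loci kept by filterByExpr (TMM factors 1.00, 1.02 and 0.978, intercept only, trended dispersion, goodness of fit with 2 degrees of freedom, Benjamini-Hochberg), after a check on simulated data. DESeq2 1.42.0 size factors were an alternative. Windows of 100 bases and blastn alignments (BLAST+ 2.17.0, at least 98% identity) were taken from the TAIR10.1 reference, which matched 31912 nuclear and 0 organelle identifiers by tag. Members, lists and tests were chosen with earlier results of these data known.

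Named in the text are clpP, cob, atp1 and, for each genome, the 10 loci with the highest mean count. Those with the largest ratios of highest to lowest CPM at a mean of at least 50 counts (5 per genome) are named too. So are loci with a near copy and counts. From the listed nuclear genes of organelle expression and Rubisco, the 4 highest and 2 lowest are named. Parts of the rule that need symbols or lengths of organelle loci (counts per kb, psbA, rbcL and others, ribosomal RNA) could not be applied. ATCG01020, ATMG01130, ATMG01170, ATMG01390, the remaining noted loci, SCA3, MGP3 and the ends of the stretches of low counts were named after their values were seen. A locus that the rule takes in is not reported here.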

Additional observations from a re-analysis of the deposited data

How the results depend on the processing

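Leaving out 1 replicate at a time gave a chloroplast share of 0.0456 to 0.0499%, a mitochondrial share of 0.0090 to 0.0103% and a log2 ratio of chloroplast to mitochondrial counts of 2.26 to 2.34. It left 70 to 73 chloroplast and 26 or 27 mitochondrial loci with at least 10 counts and 0 called as varying. Nuclear counts as denominator moved either share by less than its SD. Without ATCG00490 the chloroplast share was 0.0368%, and without the top locus of each genome the log2 ratio was 2.14. At 50 counts, 42 chloroplast and 14 mitochondrial loci passed. At 1 count, 49 mitochondrial loci passed, and at 1 CPM 17. Poisson variation alone called 27 chloroplast and 13 mitochondrial loci. Counts per kb over a genome and ratios and shares of gene groups were not run, since the identifiers could not be paired with gene lengths or symbols. No paired analysis was possible because the libraries form 1 group. By counting error alone, a locus listed at 0 may have had up to 3 counts' worth of RNA in a library. Reads that fit several places are outside this limit, so the RNA of such a locus may have been higher and its absence is not shown.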
